A study of Mus musculus with 12 samples.

Results

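The nuclear RNA polymerases I, II and III (Pol I, II and III) were followed through the genes that encode their subunits, taken as every symbol made of Polr1, Polr2 or Polr3 followed by a letter, together with Znrd1, a Pol I subunit known by an older symbol. Only probe sets that the array annotation assigns to 1 gene were used, and a gene with several probe sets was represented by the brightest. This gave 28 genes out of 19937 gene symbols measured: 4 specific to Pol I, 2 shared by Pol I and III, 5 shared by all 3 enzymes, 7 specific to Pol II, 9 specific to Pol III, and Polr2m, whose product binds Pol II without being a core subunit.

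Pol I transcribes the large ribosomal RNA precursor in the nucleolus, Pol II transcribes messenger RNAs, and Pol III makes transfer RNAs and 5S ribosomal RNA. Each enzyme has a pair of large subunits that form the active site, an assembly platform of a pair of related subunits, small subunits common to all the enzymes, and peripheral modules of its own. In liver, ribosome production and protein synthesis follow nutrition and growth, so that the output of Pol I and III is closely regulated in this tissue, largely through initiation factors.

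The data were liver transcriptomes of male mice on the C57BL6/JJmsSlc background, measured on Affymetrix Mouse Gene 1.0 ST arrays, in 4 groups of 3 animals. WT natural mating and WT IVF mice had the normal Atf7 gene, and Atf7-/- natural mating and Atf7-/- IVF mice lacked it in both parents and offspring. ATF7 is a transcription factor of the ATF/CREB family that is known to help silence genes at chromatin and to be released on stress. The comparisons asked how fertilization in vitro (IVF) altered the liver of the offspring, and how this depended on ATF7. IVF offspring came from superovulated females, were cultured before transfer, and were carried by pseudopregnant ICR recipients, whereas natural mating offspring were carried by their own C57BL6 mothers, so that IVF and the strain of the carrying mother cannot be told apart. The carrying mothers of Atf7-/- natural mating offspring were themselves Atf7-/-, whereas IVF offspring of both genotypes had ICR recipients. Without IVF, loss of ATF7 in the offspring and in the carrying mother therefore cannot be told apart. The same holds for the difference between the IVF effects of the genotypes, which uses these groups. Each liver of a group came from a different litter. The age was 4 weeks according to the sample labels and 3 weeks according to the methods.

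The labels were checked first. The probe set of Atf7 with the larger difference was 2.82 lower (log2) in Atf7-/- natural mating than in WT natural mating livers (adjusted p = 1.93e-05) and 2.53 lower between the IVF groups. It was also 0.74 lower with IVF in WT (adjusted p = 0.0384). The other Atf7 probe set differed by -0.34 with loss of ATF7 (adjusted p = 0.0758) and by -0.26 with IVF in WT (adjusted p = 0.190). The 9 hepatocyte markers measured all lay at or above the 97.9th percentile of probe sets. Arrays of a group correlated at r = 0.980 to 0.990, and the array medians lay between 6.22 and 6.34 (log2).

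A gene was called when its adjusted p in limma was at most 0.05 over all 34760 probe sets and its log2 difference was at least 0.6 in size, the thresholds of the study's methods. All subunit genes were expressed above the middle of the array, with mean log2 levels between 6.45 and 10.3, a range that held 9736 gene symbols. In WT livers, IVF raised 3 of the 28 subunit genes, Znrd1, Polr2f and Polr3k, and lowered none. This was 10.7% of the subunit genes, against 4.22% of all symbols and 6.72% of the symbols in the same range of level. The groups did not overlap for 11 subunit genes that were higher and 6 that were lower with IVF, while 16.9% of all symbols were higher and 15.1% lower in this way. Of the 9736 symbols in the same range of level, 2427 were higher and 1632 lower without overlap. In Atf7-/- livers, IVF lowered Polr2e and Polr2j and raised none, which was 7.14% of the subunit genes against 6.3% of all symbols and 10.3% of those in the same range of level. The share called in Atf7-/- livers was thus near or below the background, and that in WT livers rested on 3 genes.

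Loss of ATF7 without IVF raised Znrd1, Polr2f and Polr2e and lowered Polr2l, 14.3% of the subunit genes against 6.21% of all symbols and 10.1% of those in the same range of level. Between the IVF groups, loss of ATF7 changed no subunit gene by limma, against 0.00502% of all symbols, and 1 subunit gene, Polr2b, had an unadjusted p under 0.05. Atf7-/- IVF livers differed from WT natural mating livers in Znrd1 alone, 3.57% of the subunit genes against 3.05% of all symbols. The effect of IVF differed between genotypes (the interaction term) for Znrd1, Polr2f, Polr2c and Polr2e, all lower, 14.3% of the subunit genes against 5.7% of all symbols and 9.12% of those in the same range of level. Of all symbols, 4.23% were called lower in the interaction and 1.47% higher. The WT natural mating arrays served in both the IVF comparison in WT and the ATF7 comparison without IVF, and the Atf7-/- natural mating arrays in both the latter and the IVF comparison in Atf7-/-, so these comparisons were not independent.

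**Figure D1:**
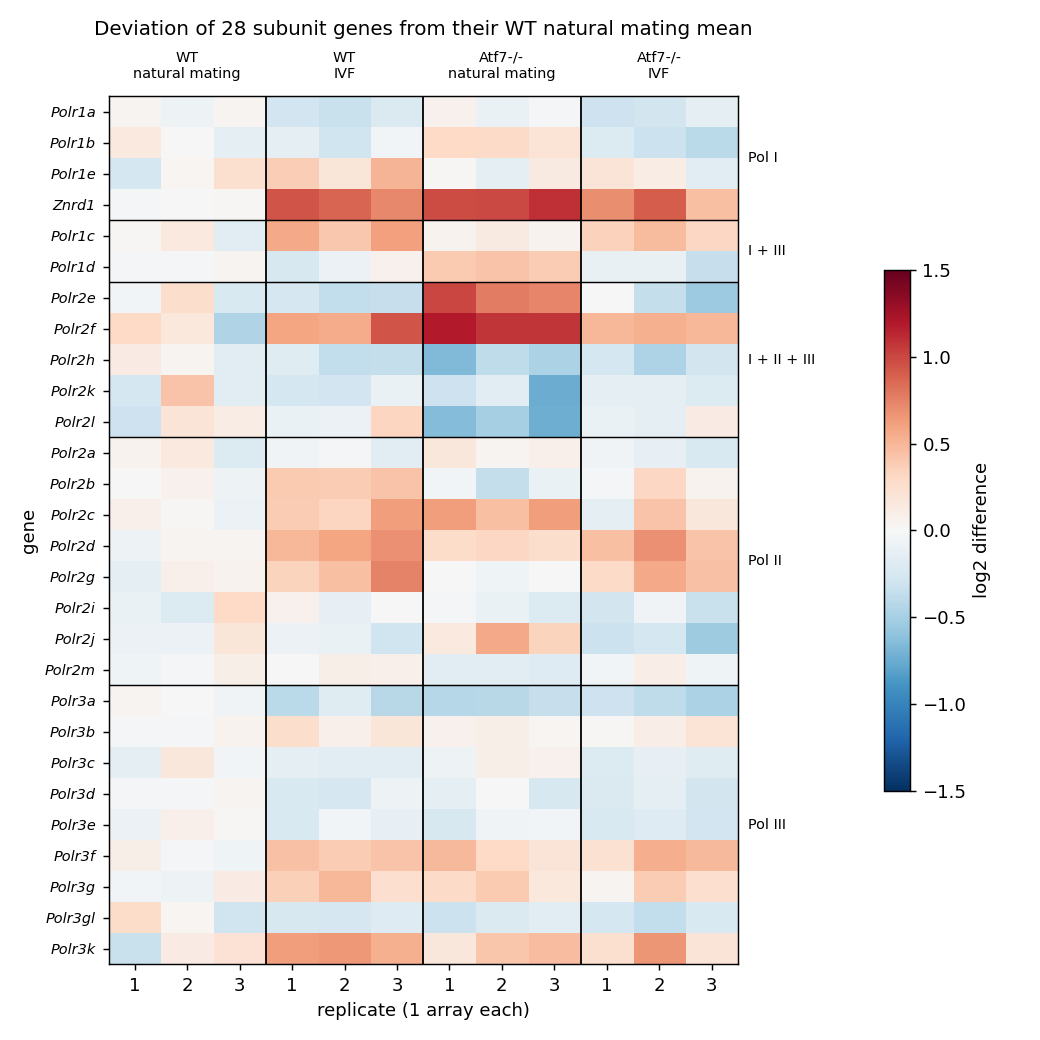
Each row is a subunit gene, ordered by polymerase, and each column is 1 array, with the colour giving the log2 difference from the gene's mean in WT natural mating livers. Znrd1 and Polr2f stand above that mean in all 9 other arrays, whereas Polr2e stands far above it only in the 3 Atf7-/- natural mating arrays, and most Pol III rows stay pale.

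Znrd1, the small Pol I subunit that takes part in cleavage of the growing ribosomal RNA, was called in 4 of the 6 comparisons, more than any other subunit gene. The WT natural mating livers read 6.89, 6.92 and 6.94 (log2). The WT IVF livers read 7.86, 7.79 and 7.64. The Atf7-/- natural mating livers read 7.90, 7.91 and 8.02, and the Atf7-/- IVF livers 7.62, 7.83 and 7.37. Every one of the other 9 livers was therefore above all 3 WT natural mating livers. The group means were 6.92 ± 0.02, 7.76 ± 0.11, 7.94 ± 0.06 and 7.60 ± 0.23 (SD, n = 3). Loss of ATF7 without IVF raised the gene by 1.02 (SE 0.11, 2.03-fold, adjusted p = 0.000301), and IVF raised it by 0.84 in WT (adjusted p = 0.00261). In Atf7-/- livers the IVF difference was -0.34 (adjusted p = 0.0782), without overlap between the groups. The interaction was -1.18 (SE 0.16, adjusted p = 0.00249), and with IVF the genotypes differed by -0.16 (95% interval -0.41 to 0.09). These calls held without any one array, but the difference of Atf7-/- IVF from WT natural mating livers (0.68, adjusted p = 0.00818) fell to 0.57, under the fold threshold, without Atf7-/- IVF replicate 2.

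None of the other 3 Pol I subunits was called in a comparison. Polr1a and Polr1b encode the large catalytic pair, and Polr1e encodes part of the Pol I-specific module that is related to an initiation factor of Pol II. Polr1a was 0.28 lower with IVF in WT (adjusted p = 0.0652) and 0.22 lower in Atf7-/- livers (adjusted p = 0.122). Polr1b read 8.41, 8.41 and 8.32 in Atf7-/- natural mating livers and 7.91, 7.79 and 7.71 in Atf7-/- IVF livers, groups that did not overlap, and its difference of -0.57 passed the adjusted p (0.00443) but not the fold threshold. Polr1b was also 0.27 higher with loss of ATF7, again without overlap (adjusted p = 0.120), and its interaction was -0.42 (adjusted p = 0.114), the signs of Znrd1 in these 3 comparisons. All 3 use the Atf7-/- natural mating arrays, so these signs are not independent. With IVF in WT, Polr1b differed by -0.16 (adjusted p = 0.383), opposite in sign to Znrd1. Polr1e differed by 0.35 with IVF in WT (95% interval 0.03 to 0.68, adjusted p = 0.170). Over the 4 Pol I genes, the median log2 difference was 0.10 with IVF in WT and 0.13 with loss of ATF7, against -0.02 and 0.00 over all symbols. It was -0.28 with IVF in Atf7-/- livers, where Znrd1, Polr1a and Polr1b were lower without overlap, and -0.36 in the interaction, where 3 of the 4 were negative, against -0.01 and 0.00 over all symbols. With IVF in Atf7-/- livers, 3838 of all 19937 symbols were lower without overlap, and 2884 of the 9736 in the same range of level. Znrd1 thus lay far above the class median with IVF in WT and with loss of ATF7. It is 1 of the 4 genes behind that median, so a shared sign is not a separate result. With IVF in WT, Polr1a and Polr1b had the opposite sign to Znrd1 (-0.28 and -0.16) and Polr1e the same sign (0.35). With loss of ATF7, Polr1a, Polr1b and Polr1e differed by -0.02, 0.27 and 0.0006.

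**Figure D2:**
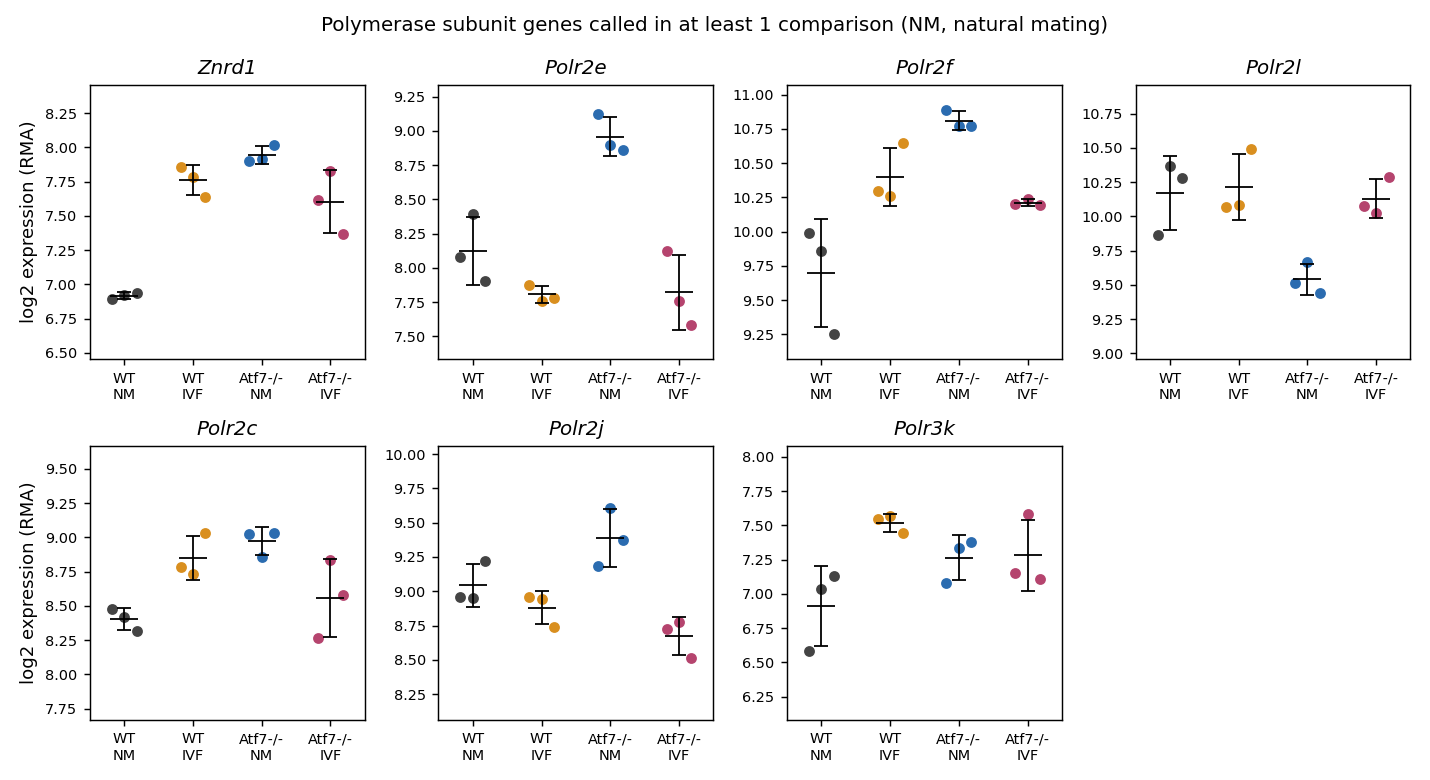
Each panel plots the log2 expression of 1 of the 7 subunit genes called in at least 1 comparison, with a point per array and the mean and SD (n = 3) of each group; the vertical axis differs between panels. The 3 WT natural mating points of Znrd1 lie between 6.89 and 6.94, below all others, and the 3 Atf7-/- natural mating points lie apart for Polr2e, Polr2f and Polr2l.

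Proximal promoters of the most often called genes are shown because ATF7 is known to bind the cAMP response element, the palindrome TGACGTCA. RefSeq promoters (GRCm38.p6) of 300 bases, 250 before and 50 after the start, were at hand for 23 of the 28 genes. The palindrome was in 588 of 32851 promoters (1.79%) and, of the 23 genes, only in Znrd1. Its shorter core TGACG, searched on both strands and contained in the palindrome on each, was in 6837 promoters (20.8%) and in 7 of the 23 genes (30.4%). These were Znrd1, Polr1c, Polr1d, Polr2a, Polr2f, Polr2j and Polr2m, or 3 of the 7 genes called in a comparison and 4 of the 16 others. The 250 bases before the start are printed 5′ to 3′ on the gene's strand, with these matches in capitals, for Znrd1 (chr17:36958526-36958775, minus strand), Polr2f (chr15:79141075-79141324, plus strand) and Polr2e (chr10:80039660-80039909, minus strand).
Znrd1: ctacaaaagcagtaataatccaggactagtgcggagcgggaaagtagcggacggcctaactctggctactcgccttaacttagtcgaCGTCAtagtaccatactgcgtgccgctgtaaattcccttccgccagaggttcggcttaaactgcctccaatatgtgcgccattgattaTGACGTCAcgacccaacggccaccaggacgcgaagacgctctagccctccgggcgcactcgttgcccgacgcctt
Polr2f: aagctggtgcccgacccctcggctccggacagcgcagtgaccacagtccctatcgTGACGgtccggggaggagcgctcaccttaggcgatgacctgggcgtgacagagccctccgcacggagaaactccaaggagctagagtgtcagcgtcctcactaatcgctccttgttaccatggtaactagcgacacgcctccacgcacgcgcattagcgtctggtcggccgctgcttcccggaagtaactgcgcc
Polr2e: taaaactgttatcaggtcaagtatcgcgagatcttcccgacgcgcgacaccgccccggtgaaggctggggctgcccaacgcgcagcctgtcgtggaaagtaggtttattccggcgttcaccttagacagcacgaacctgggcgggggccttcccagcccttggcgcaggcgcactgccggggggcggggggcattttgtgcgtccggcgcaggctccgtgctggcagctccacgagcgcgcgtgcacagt
In Znrd1 the palindrome began 75 bases before the start, and a further core lay 163 bases before it. RefSeq holds a second start for Znrd1, and from that one the same palindrome lay 172 bases upstream. Polr2f held a single core 195 bases before the start, and the Polr2e sequence held no match although the gene was called in 3 comparisons. These are matches of letters, and no binding was measured.

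The 5 subunits common to all the enzymes moved in opposite directions when ATF7 was lost without IVF. Polr2e encodes a subunit of the jaw that grips the DNA, Polr2f a subunit at the base of the clamp, Polr2l and Polr2k small zinc-binding subunits of the assembly platform, and Polr2h another small subunit. Polr2f read 9.99, 9.86 and 9.25 in WT natural mating livers and 10.89, 10.77 and 10.77 in Atf7-/- natural mating livers. The groups did not overlap, and the difference was 1.11 (SE 0.17, 2.16-fold, adjusted p = 0.00185). Polr2e read 8.08, 8.39 and 7.90 in the former and 9.12, 8.89 and 8.86 in the latter, a difference of 0.83 (SE 0.16, 1.78-fold, adjusted p = 0.00499). Polr2l ran the other way, with 9.86, 10.36 and 10.28 in WT and 9.52, 9.67 and 9.44 in Atf7-/- livers. Its difference of -0.63 (SE 0.16, adjusted p = 0.0215) was lost without Atf7-/- natural mating replicate 1 or 3 or WT natural mating replicate 2 or 3 (adjusted p 0.0609 to 0.0815). Polr2h was 0.50 lower, past the adjusted p (0.0116) but not the fold threshold, and Polr2k was 0.41 lower (adjusted p = 0.181). The median over the 5 genes was -0.41, with single differences from -0.63 to 1.11.

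With IVF, the same 5 genes again differed among themselves. Polr2f read 10.30, 10.26 and 10.64 in WT IVF livers, all above the WT natural mating livers, and IVF raised the gene by 0.70 (SE 0.17, 1.63-fold, adjusted p = 0.0310). This call was lost when any array of the comparison other than WT natural mating replicate 1 was left out, with differences of 0.48 to 0.78 and adjusted p of 0.0386 to 0.107. In Atf7-/- IVF livers Polr2f read 10.20, 10.24 and 10.19, all below the Atf7-/- natural mating livers. That difference of -0.597 (adjusted p = 0.0424) lay just inside the fold threshold and was not called. The effect of IVF on Polr2f differed between genotypes by -1.30 (SE 0.24, adjusted p = 0.0105), and this held without any one array.

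Polr2e was lowered by IVF in Atf7-/- livers only as far as the calls went. The Atf7-/- IVF livers read 8.12, 7.76 and 7.58, below all Atf7-/- natural mating livers, and the difference was -1.14 (SE 0.16, 2.20-fold lower, adjusted p = 0.00113). The WT IVF livers read 7.88, 7.76 and 7.78, also below all WT natural mating livers, and the mean was 0.32 lower (adjusted p = 0.233). The difference between these effects was -0.82 (SE 0.22, adjusted p = 0.0475), and it was lost without any one array except Atf7-/- IVF replicate 1 or WT natural mating replicate 2 (adjusted p 0.0754 to 0.107). Polr2l was 0.59 higher with IVF in Atf7-/- livers (adjusted p = 0.0300, under the fold threshold), where it read 10.08, 10.02 and 10.29, within the range of the WT livers.

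The assembly platforms were read through their paired subunits, Polr2c with Polr2j in Pol II and Polr1c with Polr1d in Pol I and III. Polr2c read 8.48, 8.42 and 8.31 in WT livers without IVF, 8.78, 8.73 and 9.03 in WT IVF, 9.03, 8.86 and 9.03 in Atf7-/- natural mating and 8.27, 8.83 and 8.58 in Atf7-/- IVF livers. IVF thus went with higher values in WT (0.44, adjusted p = 0.0759) and lower ones in Atf7-/- livers (-0.41, adjusted p = 0.0802), neither called, and the interaction was -0.86 (SE 0.20, adjusted p = 0.0264). It was lost without Atf7-/- natural mating replicate 1 or 3, Atf7-/- IVF replicate 3, WT natural mating replicate 2 or WT IVF replicate 3 (adjusted p 0.0517 to 0.0653). The gene's other probe set gave an interaction of -0.54 (adjusted p = 0.127) and 0.48 for loss of ATF7 (adjusted p = 0.0388), beside 0.57 (adjusted p = 0.0209) for the brighter one. Whether the brighter probe set also reads copies of the gene was not tested. Polr2j, its partner, read 9.18, 9.61 and 9.37 in Atf7-/- natural mating and 8.72, 8.78 and 8.51 in Atf7-/- IVF livers and fell by 0.72 (SE 0.13, adjusted p = 0.00482). In WT it differed by -0.16 with IVF, with overlapping groups, and its interaction of -0.56 was not called (adjusted p = 0.0987).

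Polr1c and Polr1d, the corresponding pair of Pol I and III, were called in no comparison. They had opposite signs in both IVF comparisons and the same sign with loss of ATF7 (0.08 and 0.40) and in the interaction (-0.23 and -0.51). Polr1c was 0.53 higher with IVF in WT (8.74, 8.87 and 8.56 against 9.29, 9.13 and 9.33, adjusted p = 0.0113) and 0.30 higher in Atf7-/- livers (adjusted p = 0.0786). Polr1d read 8.47, 8.50 and 8.45 in Atf7-/- natural mating livers, above every other liver, and was 0.59 lower with IVF in that genotype (adjusted p = 0.00288) and 0.40 higher with loss of ATF7 (adjusted p = 0.0193). Its other probe set gave -0.09 for both differences, so the 2 probe sets of Polr1d gave different values. Which of them reads the gene itself rather than a copy was not tested, and the values of Polr1d hold for the brighter one alone.

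In Pol II, the catalytic pair Polr2a and Polr2b was called in no comparison. Polr2a, whose product carries the heptad-repeat tail, lay between 8.84 and 9.23 in all 12 livers, and its largest difference was -0.23 with IVF in Atf7-/- livers (95% interval -0.46 to -0.01, adjusted p = 0.181). Polr2b was 0.40 higher with IVF in WT, where the groups did not overlap (adjusted p = 0.0454). The stalk subunits Polr2d and Polr2g, which form a detachable pair near the RNA exit, were both higher with IVF in WT, by 0.59 (adjusted p = 0.00485) and 0.51 (adjusted p = 0.0258). Polr2d read 6.94, 7.06 and 7.06 without IVF and 7.52, 7.61 and 7.70 with IVF in that genotype, and it lay just under the fold threshold. Polr2g was 0.45 higher with IVF in Atf7-/- livers also (adjusted p = 0.0287). Polr2d and Polr2b were 0.24 and 0.29 higher there, without overlap (adjusted p = 0.119 and 0.120). Their interactions were not called (adjusted p = 0.146 and 0.726). The median over the 7 Pol II genes was 0.40 with IVF in WT and -0.11 with IVF in Atf7-/- livers. Polr2i, a zinc-binding subunit with a role in cleavage, and Polr2m showed no called difference, Polr2i between -0.22 and -0.02 in the comparisons of 2 groups.

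Of the 9 genes specific to Pol III only Polr3k, the cleavage subunit of Pol III and the counterpart of Znrd1, was called, and only with IVF in WT. The WT natural mating livers read 6.58, 7.03 and 7.13 and the WT IVF livers 7.54, 7.56 and 7.44, a difference of 0.60 (SE 0.16, 1.52-fold, adjusted p = 0.0447). The call was lost when any array of the comparison other than WT natural mating replicate 3 was left out (adjusted p 0.0763 to 0.122). In Atf7-/- livers the difference was 0.02, and the interaction of -0.59 was not called (adjusted p = 0.162), so a difference between the genotypes was not shown. The catalytic subunit Polr3a was 0.34 lower with IVF in WT (adjusted p = 0.0388) and 0.40 lower with loss of ATF7 (adjusted p = 0.0127), both under the fold threshold. Its values were 8.59, 8.55 and 8.50 in WT natural mating livers and at most 8.36 in every other liver. The second catalytic subunit Polr3b varied little, with differences from -0.07 to 0.18 between pairs of groups.

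Polr3g and Polr3gl are paralogs that take the same place in Pol III, the former known from stem and dividing cells and the latter from most adult tissues. Polr3g read 6.19, 6.15 and 6.36 in WT natural mating livers and 6.59, 6.74 and 6.49 in WT IVF livers, a difference of 0.37 (95% interval 0.12 to 0.62, adjusted p = 0.0688) without overlap. Polr3gl differed by -0.23 (95% interval -0.51 to 0.05, adjusted p = 0.295), with overlapping groups. Neither was called in any comparison. Polr3f, part of the initiation module, was 0.42 higher with IVF in WT (adjusted p = 0.0361), and the remaining subunits Polr3c, Polr3d and Polr3e differed by at most 0.24 in size between pairs of groups.

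**Figure D3:**
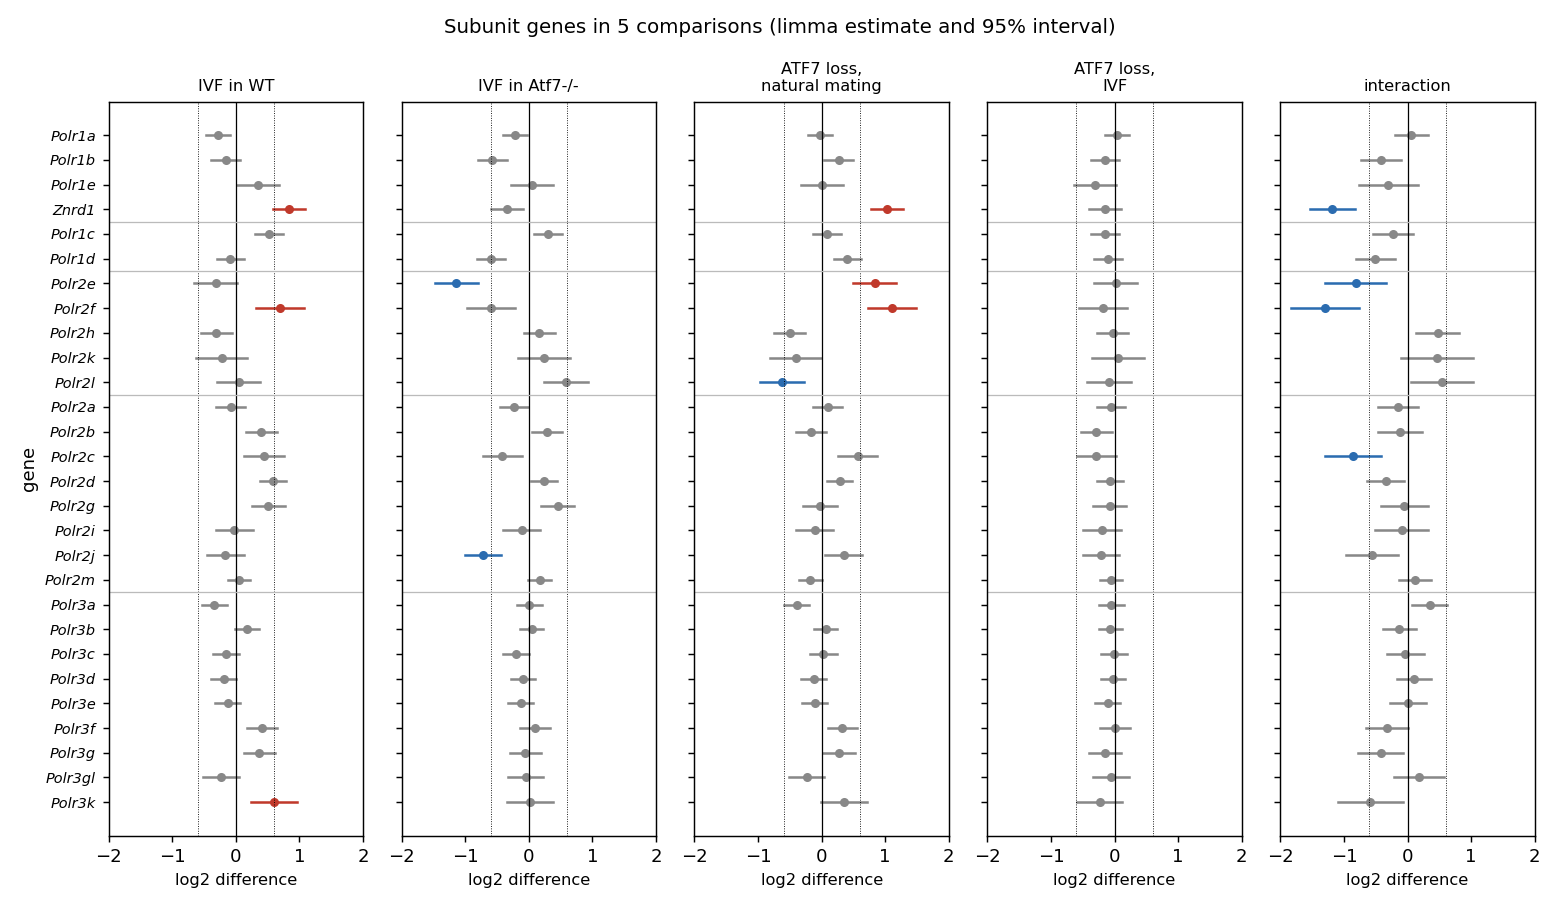
Points give the limma log2 difference of each subunit gene in 5 comparisons and bars its 95% interval, with dotted lines at the fold threshold of 0.6 and genes called higher in red and lower in blue. The column for loss of ATF7 between IVF livers holds no called gene, and its differences lie between -0.31 and 0.05.

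The 6 catalytic genes Polr1a, Polr1b, Polr2a, Polr2b, Polr3a and Polr3b were called in none of the 6 comparisons, whereas all 7 genes called at least once were among the other 22. Of all symbols, at most 6.3% were called in any 1 comparison, so none called among 6 genes was not read as a result about them. The division also rests on the fold threshold. Polr1b was called with IVF in Atf7-/- livers without Atf7-/- natural mating replicate 3 (-0.60, adjusted p = 0.0143) or without Atf7-/- IVF replicate 1 (-0.63, adjusted p = 0.00666). At an adjusted p of at most 0.05 with any fold, 2 of the 6 catalytic genes passed with IVF in WT, 1 with IVF in Atf7-/- livers and 1 with loss of ATF7. That was 33.3%, 16.7% and 16.7% of them, against 31.8%, 27.3% and 31.8% of the other 22. Over the 28 genes the corresponding counts were 9, 7 and 8 (32.1%, 25% and 28.6%), against 9.47%, 14.4% and 14.2% of all symbols and 15%, 24.1% and 23.2% of those in the same range of level. The excess over the symbols of like level was thus in IVF in WT, and the other shares lay near that background.

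The IVF comparisons in WT and Atf7-/- livers shared no array. Of the 28 genes, 21 (75%) had the same sign in both, beside 56.9% of all symbols. The 7 with opposite signs included Znrd1, Polr2f and Polr2c, all higher with IVF in WT and lower in Atf7-/- livers. Polr2e had the same sign in both, with the larger decrease in Atf7-/- livers. Without IVF, these 4 genes were all higher in Atf7-/- than in WT livers (0.57 to 1.11), and with IVF the genotypes differed by -0.29 to 0.01. They are the 4 genes called in the interaction, which is the genotype difference with IVF minus that without IVF. This pattern thus follows in part from their choice on the same arrays and is not a separate result.

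**Figure D4:**
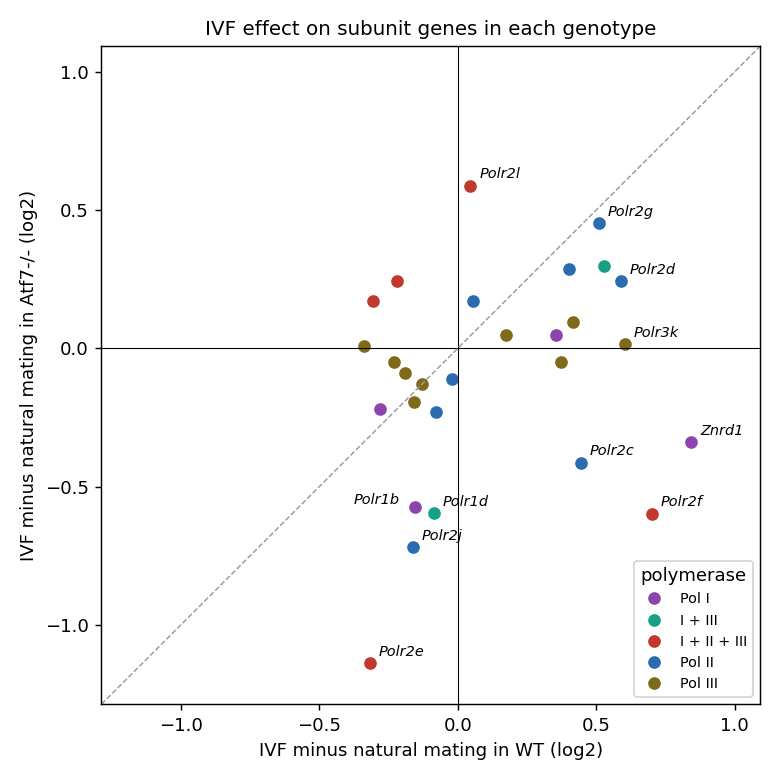
Each point is a subunit gene, coloured by polymerase, with the log2 difference of IVF from natural mating livers in WT on the horizontal axis and in Atf7-/- on the vertical axis; the dashed line marks equal effects. Znrd1, Polr2f and Polr2c lie in the lower right corner and Polr2e at the bottom (-1.14), far below the line.

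Genes that work with the polymerases were counted in the same fit and are given beside the shares of all symbols, which were 4.22% with IVF in WT, 6.3% with IVF in Atf7-/- livers, 6.21% with loss of ATF7 and 5.7% in the interaction. The lists are short, so that 1 or 2 called genes move their share by several percent. Among 12 Pol I factors, IVF raised Npm1, a nucleolar chaperone, in WT (0.68, adjusted p = 0.0230) and in Atf7-/- livers (0.70, adjusted p = 0.0118). Ncl, which encodes nucleolin, rose with IVF in Atf7-/- livers (95% interval 0.66 to 1.35 on the log2 scale, adjusted p = 0.00224) and fell by 1.10 with loss of ATF7 (adjusted p = 0.00111). Fbl, the ribosomal RNA methyltransferase fibrillarin, was lower with loss of ATF7 (-0.67, adjusted p = 0.00238), and Nolc1, a nucleolar phosphoprotein, was lower with IVF in Atf7-/- livers (-0.83, adjusted p = 0.00768). Ncl thus ran opposite to Znrd1 in the ATF7 comparison, and its interaction of 1.11 (adjusted p = 0.0141) was also opposite. Rrn3 and Ubtf, the initiation factors of Pol I, were called in no comparison. The shares of this list called were 8.33%, 25%, 16.7% and 8.33% in the same order of comparisons.

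Of 16 Pol III factors measured, IVF raised 2 in WT (12.5% of the list against 4.22% of all symbols), the TFIIIC subunits Gtf3c6 (1.02, adjusted p = 0.00512) and Gtf3c3 (0.61, adjusted p = 0.0250), and none was called with IVF in Atf7-/- livers. With loss of ATF7 the share was 6.25% against 6.21%, and in the interaction 12.5% against 5.7%. Gtf3c6 was also higher with loss of ATF7 (0.66, adjusted p = 0.0205), and its interaction was -0.91 (adjusted p = 0.0364), the signs seen in Znrd1. The second Pol III factor called in the interaction was Snapc2 (-0.62, adjusted p = 0.0417), a subunit of the complex that binds small nuclear RNA promoters. Brf1, an initiation factor, and Maf1, the repressor of Pol III, were called in none.

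Of 31 Pol II general factors, IVF raised 5 and lowered none in WT (16.1% of the list against 4.22% of all symbols). They were Taf9b (1.15, adjusted p = 0.00352), Taf13 (0.89, adjusted p = 0.0179) and Taf7 (0.61, adjusted p = 0.00651) of TFIID, Ccnh, the cyclin of the TFIIH kinase (0.76, adjusted p = 0.00803), and Gtf2e2 of TFIIE (0.63, adjusted p = 0.0217). In Atf7-/- livers IVF raised Taf13, Gtf2e2 and Taf7 and lowered Ercc2, a helicase of TFIIH (-0.60, adjusted p = 0.00513). Loss of ATF7 raised Taf9b alone (1.31, adjusted p = 0.000609), and Taf9b and Taf6 were the 2 called in the interaction (-1.51, adjusted p = 0.00456, and -0.74, adjusted p = 0.0347). The shares called in these 3 comparisons were 12.9%, 3.23% and 6.45%, against 6.3%, 6.21% and 5.7% of all symbols. Tbp and Gtf2b were called in none. In the 28 elongation and termination factors measured, Ccnt1, the cyclin of the elongation kinase P-TEFb, was raised by loss of ATF7 (0.70, adjusted p = 0.00478) and lowered by IVF in Atf7-/- livers (-0.82, adjusted p = 0.00250), the directions of Polr2e. Ell was lower with IVF in WT (-0.63, adjusted p = 0.0403). This list had 1 gene called in each of these 3 comparisons (3.57%), below the share of all symbols. Among 12 factors of polymerase assembly and import, Uxt, a prefoldin-like protein, was higher with IVF in WT (0.90, adjusted p = 0.00283) and Rpap2 with loss of ATF7 (0.61, adjusted p = 0.00553). Ruvbl1 was higher and Rpap2 lower in the interaction, so that the shares were 8.33% with IVF in WT, 8.33% with loss of ATF7 and 16.7% in the interaction. Between Atf7-/- IVF and WT natural mating livers, Npm1, Gtf3c6, Uxt, Taf9b, Ccnh, Taf7 and Gtf2e2 were higher and Taf1d was lower. No gene of these lists was called for loss of ATF7 between the IVF groups.

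Cell composition was read from marker lists, and its part in the subunit results was not tested. In bulk liver, fewer cells of a type and less RNA per cell cannot be told apart. All 7 proliferation markers measured were higher in every WT IVF than in every WT natural mating liver, though only Bub1 was called (1.84, adjusted p = 0.0304). The summed log2 level of this list was 9.48 to 10.0 in WT natural mating livers. It was 11.1 to 11.3 in WT IVF, 10.2 to 11.3 in Atf7-/- natural mating and 9.73 to 11.5 in Atf7-/- IVF livers, so that WT natural mating livers lay below WT IVF and Atf7-/- natural mating livers but overlapped with Atf7-/- IVF livers. In 3 other lists the WT natural mating livers, which had the lowest Znrd1, lay below all other livers in summed level. Such a sum is set mostly by the brightest markers. The 8 sinusoidal endothelium markers summed to 12.09 to 12.37 in them, against 12.40 to 12.70 in WT IVF, 12.54 to 12.88 in Atf7-/- natural mating and 12.47 to 12.63 in Atf7-/- IVF livers. The mean log2 level of the same markers overlapped between WT natural mating (8.87 to 9.16) and WT IVF livers (9.12 to 9.41). Only 1 of the 8 was higher without overlap with IVF in WT. Of this list only Clec4g, an endothelial lectin, was called. It was higher with IVF in WT (0.75, adjusted p = 0.0225), with loss of ATF7 (95% interval 0.63 to 1.37, adjusted p = 0.00283) and in Atf7-/- IVF against WT natural mating livers (0.64, adjusted p = 0.0496) and lower in the interaction (-1.10, adjusted p = 0.0190), the 4 comparisons and signs in which Znrd1 was called. The medians of the endothelial list in these 4 comparisons were 0.14, 0.17, 0.18 and -0.09, all smaller in size than the differences of Clec4g. Of its 8 markers, 6, 7, 8 and 3 were positive in the same order. The 9 stellate cell markers summed to 12.14 to 12.56 in WT natural mating, 12.73 to 13.03 in WT IVF, 12.61 to 12.76 in Atf7-/- natural mating and 12.92 to 13.04 in Atf7-/- IVF livers. Of these, Reln and Hgf were called higher with IVF in WT and Acta2 with loss of ATF7. The 5 cholangiocyte markers summed to 8.32 to 8.42 in WT natural mating livers and to between 8.52 and 8.86 in the others. Of 8 Kupffer cell and macrophage markers, 3 were lower (Cd5l, Marco and Clec4f) and 1 higher (Vsig4) with loss of ATF7, the sum being 12.5 to 13.0 in WT and 12.3 to 12.6 in Atf7-/- natural mating livers. The hepatocyte list summed to between 16.3 and 16.4 in every liver, a sum set mostly by its most abundant genes. Within it, Hnf4a, a hepatocyte transcription factor, was 0.68 higher with loss of ATF7 (adjusted p = 0.00390). It was 0.76 lower with IVF in Atf7-/- livers (adjusted p = 0.00252) and -0.74 in the interaction (adjusted p = 0.0260). These are the comparisons and signs in which Polr2e was called. The list as a whole did not share them. Of its 9 markers, 3 were positive with loss of ATF7, 5 with IVF in Atf7-/- livers and 5 in the interaction (medians -0.06, 0.03 and 0.04). Pck1, an enzyme of glucose production, was lower with IVF in WT (-0.77, adjusted p = 0.0247) and in Atf7-/- IVF against WT natural mating livers (-1.01, adjusted p = 0.0105). Of 7 lymphocyte markers, IVF in Atf7-/- livers raised Ptprc, Cd3g and Ms4a1 (0.80, 0.74 and 0.71), 42.9% against 6.3% of all symbols. Ms4a1 was also higher with IVF in WT (0.93), and Ptprc was lower with loss of ATF7 (-0.84). Of 5 erythroid markers only Tfrc was called, higher with IVF in Atf7-/- livers (1.84, adjusted p = 0.00909). In neither list did the summed level of WT natural mating livers lie below all other livers.

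Most genes had 1 probe set. For Polr2h the brightest probe set rests on a single cDNA record, whereas the dimmer one rests on RefSeq transcripts, and both were lower with loss of ATF7 (-0.50, adjusted p = 0.0116, and -0.54, adjusted p = 0.00192), neither past the fold threshold. For Polr3e the dimmer probe set gave -0.68 with loss of ATF7 (adjusted p = 0.0625) and the brighter one -0.11.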

How the data were processed

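Liver RNA of 12 male mice, 3 in each of 4 groups, was hybridized to Affymetrix Mouse Gene 1.0 ST arrays by the authors, 1 array per animal. The deposited values are log2 expression per probe set, made by the authors with RMA in the affy package; no version or genome build was stated (not given in the sources used here). The platform annotation gave 21640 of the 34760 probe sets a single (1) gene symbol, 1321 several symbols and the remaining 11799 none. All 28 genes were found by Entrez ID in the RefSeq table.

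Group means were fitted to all probe sets and 12 arrays with limma 3.58.1 in R 4.3.3 (lmFit, contrasts.fit, eBayes, 8 residual degrees of freedom), with Benjamini-Hochberg adjustment over all probe sets, and the procedure was tested on simulated data. Genes given full statistics were those called in any of 6 comparisons, the catalytic subunits, the Polr3g and Polr3gl pair, and up to 3 called genes per pathway list and comparison with Rrn3, Ubtf, Brf1, Maf1, Tbp, Gtf2b and Polrmt; those of the general factors beyond 3 were added for completeness of a count. The members, lists and tests were chosen with earlier results of these data known. The number of arrays limits the precision. Alternatives were the groups in the fit, a replicate block, array weights, trended robust variances, median centring, a further quantile step, leaving out dim probe sets, the mean over probe sets, the features adjusted over, the fold threshold and leaving out each array. RMA compresses differences of dim probe sets, and cross-hybridization between gene copies cannot be seen in summarized values.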

Additional observations from a re-analysis of the deposited data

Results flagged for a closer look

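The effect of IVF on 4 subunit genes differed between WT and Atf7-/- livers by a direct test of the difference, the interaction term in limma. The difference between the effects (Atf7-/- minus WT, log2) was -1.18 for Znrd1 (adjusted p = 0.00249), -1.30 for Polr2f (adjusted p = 0.0105), -0.86 for Polr2c (adjusted p = 0.0264) and -0.82 for Polr2e (adjusted p = 0.0475). Those of Znrd1 and Polr2f held without any one of the 12 arrays, whereas that of Polr2c was lost without 5 arrays, each in turn, and that of Polr2e without 10. In Znrd1, Polr2f and Polr2c the IVF difference was positive in WT and negative in Atf7-/- livers, and in Polr2e it was negative in both.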

How the results depend on the processing

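For the 14 calls of subunit genes, 232 alternative values were computed. In 194 the direction and the call were the same, in 38 the call was lost, and in 0 the direction turned. Not all of these values could come out otherwise. Dropping the fold threshold could not lose a call, since the fit was the same. A replicate block, trended robust variances, leaving out dim probe sets, the features adjusted over and the groups in the fit left the differences unchanged. Under all of these the direction could not turn. Without the fold threshold, the counts of genes called became 9 with IVF in WT, 7 with IVF in Atf7-/-, 8 with loss of ATF7 and 4 in Atf7-/- IVF against WT natural mating livers. With only the groups compared in the fit, 1 gene was called with IVF in WT, since Polr2f (adjusted p = 0.122) and Polr3k (0.0834) were lost, and 0 in Atf7-/- IVF against WT natural mating livers, since Znrd1 was lost (0.0815). Array weights gave 5 with IVF in Atf7-/- livers, adding Polr1d, Polr2f and Polr2l, and put Polr2f with IVF in WT at 0.56. Leaving out each array gave 1 to 3 genes with IVF in WT, 2 to 4 with IVF in Atf7-/-, 3 to 5 with loss of ATF7, 0 to 1 in Atf7-/- IVF against WT natural mating and 2 to 4 in the interaction. Loss of ATF7 between IVF livers gave 0 throughout.

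Median centring put Polr2l at -0.58 with loss of ATF7, quantile normalization put the Polr2e interaction at -0.77 (adjusted p = 0.0643), and the dimmer probe set of Polr2c, an alternative chosen after seeing the data, put its interaction at -0.54. Of 120 medians by polymerase, 113 moved by less than the spread, the SD of the class median between replicates pooled over groups. Leaving out dim probe sets kept all 28 genes and so could not move a median. The mean over probe sets could not move Pol I, whose genes had 1 probe set each. The mean over probe sets moved Pol II with IVF in WT to 0.28, and the genes shared by Pol I and III to -0.02 (-0.0218) with IVF in Atf7-/-, 0.12 with loss of ATF7 and -0.22 in the interaction. Median centring moved the interaction to -0.44 for Pol I, -0.45 for the genes shared by Pol I and III and -0.12 for Pol III. The cause of these changes was not tested. Same-numbered arrays of different groups correlated at -0.12 to 0.24 in their deviations, with 3 of 18 pairs above 0.1. Those 3 joined WT and Atf7-/- arrays of the same mode of conception (0.18 for natural mating, 0.14 and 0.24 for IVF). Such correlations cannot settle whether the numbers mark a shared batch, and the labels name none. A replicate block changed no count beyond 1.5 times, and Polr2f with IVF in WT (0.70) was lost under it (adjusted p = 0.0518). It ended no other call. All 28 genes lay at or above the 53.3rd percentile of mean level.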

Other observations

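A further 3 polymerase subunits are known here by other symbols, Cd3eap and Twistnb of Pol I and Crcp of Pol III, and none was called in any comparison. Their differences ran from -0.30 to 0.38 with IVF in WT. Of 7 mitochondrial transcription genes none was called. Polrmt, the mitochondrial RNA polymerase, was 0.31 lower with IVF in Atf7-/- livers (adjusted p = 0.0398) and 0.29 higher with loss of ATF7 (adjusted p = 0.0488), both under the fold threshold. The antisense neighbour of Znrd1, Znrd1as, was 0.22 higher with IVF in WT (adjusted p = 0.198) and 0.05 higher with loss of ATF7 (adjusted p = 0.829), and it was not called.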
